A study of Cavia porcellus with 10 samples.

Results

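Collagen IV is the network-forming collagen of basement membranes, the thin sheets that underlie epithelia and endothelia and surround muscle fibres and Schwann cells. The family has 6 genes, COL4A1 to COL4A6, and they were taken from the scleral read counts by gene symbol alone, ignoring case. Of the 6 symbols, 5 had a row (Col4a1, COL4A2, Col4a3, COL4A4 and COL4A5, spelled as in the deposited table), and these 5 rows all passed the filter on low counts, among 14683 genes tested in all. No row used here carried the symbol COL4A6, which was not analysed here. The symbol COL4A2 stood on 2 rows. The row with the higher mean count was taken as COL4A2, and the other is called the second COL4A2 row and is described apart.

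The sclera is the tough outer coat of the eye, built mainly from fibrillar collagen. Basement membranes occur in it around vessels and nerves and where eye muscles insert. Chains from COL4A1 and COL4A2 join in the trimer present in nearly all basement membranes. Chains from COL4A3, COL4A4 and COL4A5 form the trimer of the kidney glomerulus, the inner ear and some membranes of the eye, and defects in these genes cause Alport syndrome. In mammals the genes lie head to head in pairs, COL4A1 with COL4A2, COL4A3 with COL4A4 and COL4A5 with COL4A6, each pair starting from a shared promoter region.

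RNA came from whole scleral tissue of 10 eyes of male guinea pigs aged 2 to 3 weeks. The 5 control eyes were from untreated animals, and the 5 myopia eyes were from animals in which lenses had been used on both sides to make the eyes nearsighted. The labels give neither the power of the lenses nor how long they were worn. They do not tie eyes to animals either, so the p-values reflect only how far these samples spread, which may be technical. The comparison asks how collagen IV transcripts differ between myopic and untreated sclera. In bulk tissue, fewer cells of a type and less RNA per cell cannot be told apart.

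Total counts per library lay between 32309258 and 35430797. Levels are CPM (reads of a gene per 1000000 reads of the library) scaled with TMM factors, which ran from 0.777 to 0.968 in control and from 1.11 to 1.25 in myopia. The groups differed in most genes. By edgeR's quasi-likelihood test, with p-values adjusted by Benjamini-Hochberg over all genes, 71.9% of genes passed an adjusted p of 0.05, 36.9% as higher and 35.1% as lower in myopia, and in 57.8% of genes the groups did not overlap (29.8% higher and 28% lower). Control 4 and control 5 lay nearest to the myopia libraries on the first principal component, at -49.7 and -24.6, against -94.6 to -81.5 in control 1 to 3 and 61.5 to 72.5 in myopia. In control 7.20% to 10.3% of reads were on ribosomal protein genes, against 4.40% to 4.91% in myopia. The marker transcripts of scleral fibroblasts were abundant in every library, with COL1A1 at 82728 CPM in control and 35555 CPM in myopia on average.

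In the myopic sclera, Col4a3, COL4A4 and COL4A5 rose, COL4A2 fell, and Col4a1 did not pass the test. Over the 5 genes the median log2 fold change was 1.24, beside 0.03 over all genes tested. That makes 3 of 5 higher and 1 of 5 lower, and 4 of 5 genes had groups that did not overlap. The share of called chains is near the 71.9% of all genes, so the calls by themselves set the family apart from no other genes. The sizes differed widely between chains, from 6.55-fold higher for Col4a3 to 2.00-fold lower for COL4A2.

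**Figure D1:**
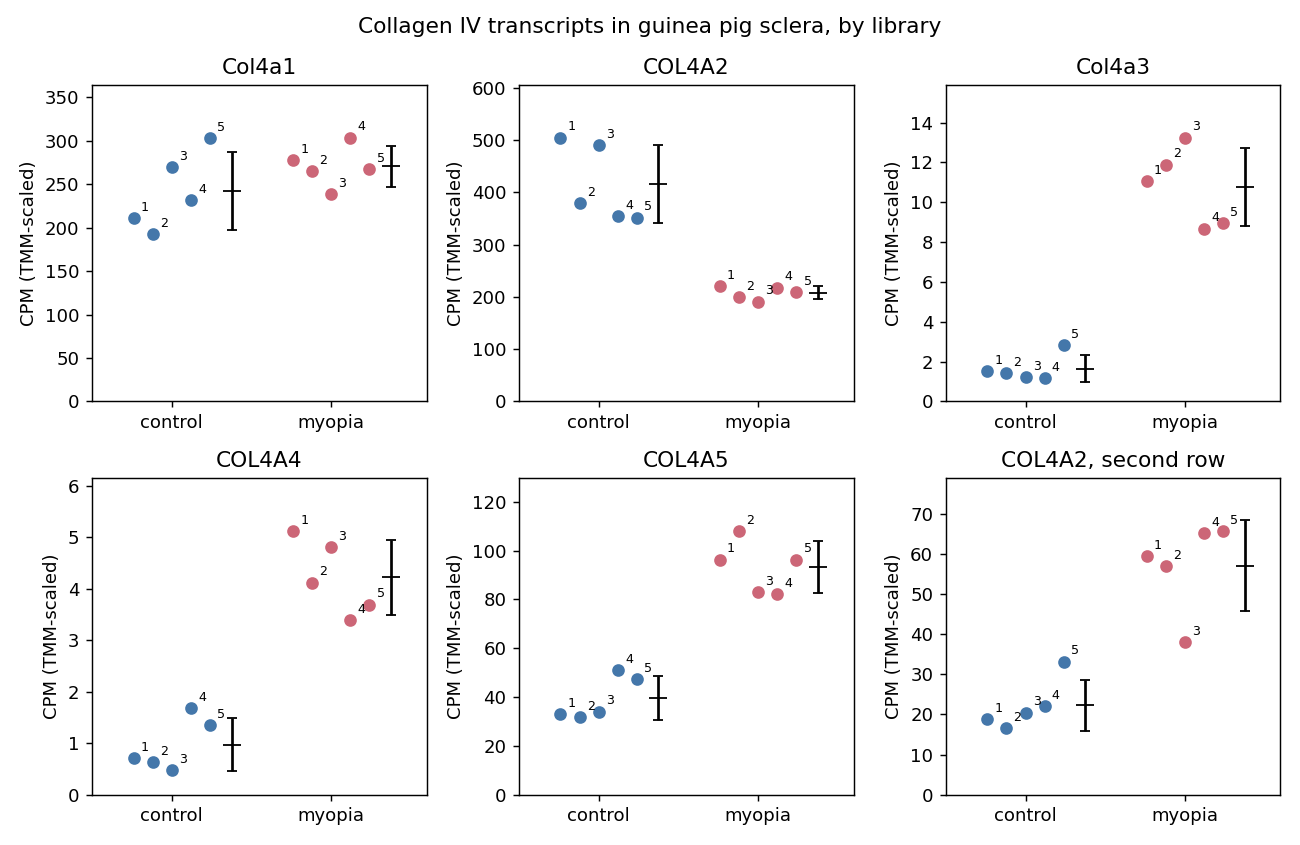
CPM (vertical axis, TMM-scaled, from 0) of each collagen IV row in the 5 control and 5 myopia libraries, 1 point per library with its number; the bar beside each group is the mean ± SD. The groups overlap for Col4a1 and are apart for the other 4 chains and for the second COL4A2 row, with COL4A2 alone lower in myopia.

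Col4a1 encodes the chain that enters the ubiquitous trimer in 2 copies for each copy of the COL4A2 chain. Its level was 211, 193, 270.0, 232 and 303 CPM in control 1 to 5 and 278, 265, 239, 304 and 267 CPM in myopia 1 to 5. The groups overlapped, control 3 and control 5 lying within the range of the myopia libraries. The means were 242 ± 44.9 CPM in control and 271 ± 23.4 CPM in myopia (SD, n = 5 per group). The log2 fold change was 0.16 ± 0.12 (SE), with a 95% interval from -0.10 to 0.43, and edgeR gave an adjusted p of 0.252. The gene did pass, as higher in myopia, without control 5 (0.27, edgeR adjusted p = 0.0364), without control 4 and control 5 together (0.28, adjusted p = 0.0423), and with scaling by total count (0.60, adjusted p = 0.00511), a scaling that moved the median of all genes from 0.03 to 0.47.

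COL4A2, the partner chain, moved the other way. Its level was 504, 379, 490.0, 354 and 351 CPM in control 1 to 5 and 220.2, 199, 191, 218 and 209.8 CPM in myopia 1 to 5. Every myopia library lay below every control library, and the highest myopia value was 220.2 CPM against a lowest control value of 351 CPM. The fall from 416 ± 75.3 to 208 ± 12.4 CPM (SD, n = 5 per group) was -1.002 ± 0.12 on the log2 scale (SE; edgeR adjusted p = 7.26e-06). It remained a fall under every alternative tried on this row, alone or summed with the second row, between -1.13 and -0.54, with edgeR, DESeq2 or limma-voom adjusted p of at most 0.000531.

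The second COL4A2 row held far fewer reads and went in the opposite direction. It stood at 18.9, 16.7, 20.5, 22.1 and 33.2 CPM in control 1 to 5 and at 59.5, 56.9, 38.0, 65.2 and 65.8 CPM in myopia 1 to 5, so the groups did not overlap. Its rise from 22.3 ± 6.43 to 57.1 ± 11.3 CPM (SD, n = 5 per group) was 1.36 ± 0.19 on the log2 scale (SE; edgeR adjusted p = 3.10e-05). The table does not say which gene model this row stands for. The direction given for COL4A2 thus holds for the row with the higher mean count, at 10748 to 14353 reads per control library against 473 to 1033 in the second row.

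Col4a3 encodes the chain whose end domain is the target of the autoantibodies of Goodpasture disease. It was scarce in control, with 36 to 88 reads per library, and had 340 to 516 reads per library in myopia. In CPM these were 1.54, 1.41, 1.23, 1.18 and 2.83 in control 1 to 5 and 11.1, 11.9, 13.2, 8.67 and 8.95 in myopia 1 to 5. The lowest myopia library, at 8.67 CPM, lay above the highest control library, control 5, which itself stood apart from the other control libraries. The rise from 1.64 ± 0.68 to 10.8 ± 1.95 CPM (SD, n = 5 per group) was 2.71 ± 0.25 on the log2 scale (SE; edgeR adjusted p = 1.03e-06). Of all genes tested, 2.35% had a larger log2 fold change.

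COL4A4 encodes the chain that pairs with that of Col4a3. It had 14 to 51 reads per library in control and 138 to 197 in myopia. Its level was 0.71, 0.634, 0.478, 1.67 and 1.35 CPM in control 1 to 5 and 5.12, 4.11, 4.80, 3.38 and 3.69 CPM in myopia 1 to 5. The groups did not overlap, and control 4 and control 5 were the higher control libraries. The rise from 0.969 ± 0.515 to 4.22 ± 0.732 CPM (SD, n = 5 per group) was 2.11 ± 0.33 on the log2 scale (SE; edgeR adjusted p = 6.30e-05), and it was 2.81 without control 4 and control 5.

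COL4A5 encodes the chain shared by the trimer with COL4A3 and COL4A4 and by the trimer with COL4A6. Its level was 32.9, 31.8, 34.1, 51.1 and 47.4 CPM in control 1 to 5 and 96.3, 108, 83.1, 82.2 and 96.3 CPM in myopia 1 to 5. Again control 4 and control 5 were the higher control libraries, and all myopia libraries lay above them. The rise from 39.5 ± 9.07 to 93.2 ± 10.8 CPM (SD, n = 5 per group) was 1.24 ± 0.14 on the log2 scale (SE; edgeR adjusted p = 5.52e-06).

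**Figure D2:**
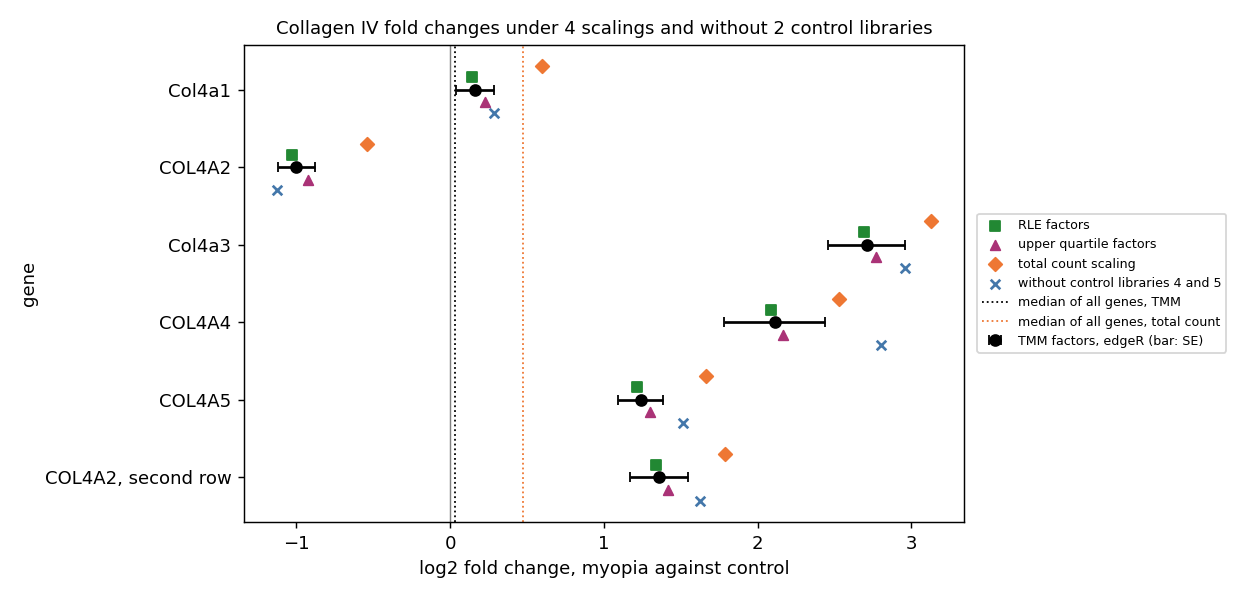
Log2 fold change of myopia against control (horizontal axis) for each collagen IV row (vertical axis) with TMM factors (black points, bars are SE), with 3 other scalings and without control 4 and control 5; dotted lines mark the median of all genes under TMM and total-count scaling. Each chain keeps its sign under these settings, and total-count scaling shifts all of them up, Col4a1 to 0.60 and COL4A2 to -0.54.

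Read ratios of 2 chains within a library do not depend on how libraries are scaled. They are not divided by transcript length, so only their difference between groups is used. The ratio of Col4a1 to COL4A2 reads was 0.418, 0.509, 0.551, 0.654 and 0.864 in control 1 to 5. In myopia 1 to 5 it was 1.26, 1.33, 1.25, 1.40 and 1.27. Reads of COL4A2 thus outnumbered those of Col4a1 in every control library, and Col4a1 reads outnumbered those of COL4A2 in every myopia library. Without division by length, this does not say which transcript was the more abundant.

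The mean log2 ratio went from -0.78 ± 0.40 in control to 0.38 ± 0.06 in myopia (SD, n = 5 per group), a difference of 1.16, or 2.24-fold. The exact permutation test, 2-sided, gave p = 0.00794, the smallest that 5 libraries against 5 allow, and 0.0159 with Benjamini-Hochberg adjustment over the 2 pairs compared. The SD in control was 0.40 and that in myopia 0.06, so the control libraries held most of the spread. With the 2 rows of COL4A2 summed the difference was 0.89, and with the second COL4A2 row in place of the other it was -1.20, the opposite direction. The share of reads on ribosomal protein genes was 10.02%, 10.3%, 8.96%, 7.80% and 7.20% in control 1 to 5, highest in the 2 control libraries with the lowest ratio and lowest in the 2 with the highest. It was lower still in myopia, at 4.40% to 4.91%, and its part in the ratio was not tested. Without control 4 and control 5 the difference was 1.41 (exact permutation p = 0.0357 after adjustment).

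For the other pair, the ratio of Col4a3 to COL4A4 reads was 2.17, 2.22, 2.57, 0.706 and 2.10 in control 1 to 5 and 2.16, 2.89, 2.76, 2.57 and 2.43 in myopia 1 to 5. The groups overlapped, and control 4, with 36 reads of Col4a3 and 51 of COL4A4, stood below all other libraries. The mean log2 ratio was 0.84 ± 0.76 in control and 1.35 ± 0.16 in myopia (SD, n = 5 per group), a difference of 0.51 that did not pass (exact permutation p = 0.0873, the same after adjustment over the 2 pairs). It was 0.18 without control 4, and it passed without control 3 (0.64, exact permutation p = 0.0238 after adjustment). Whether the differences of the 2 pairs differ from each other was not tested.

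**Figure D3:**
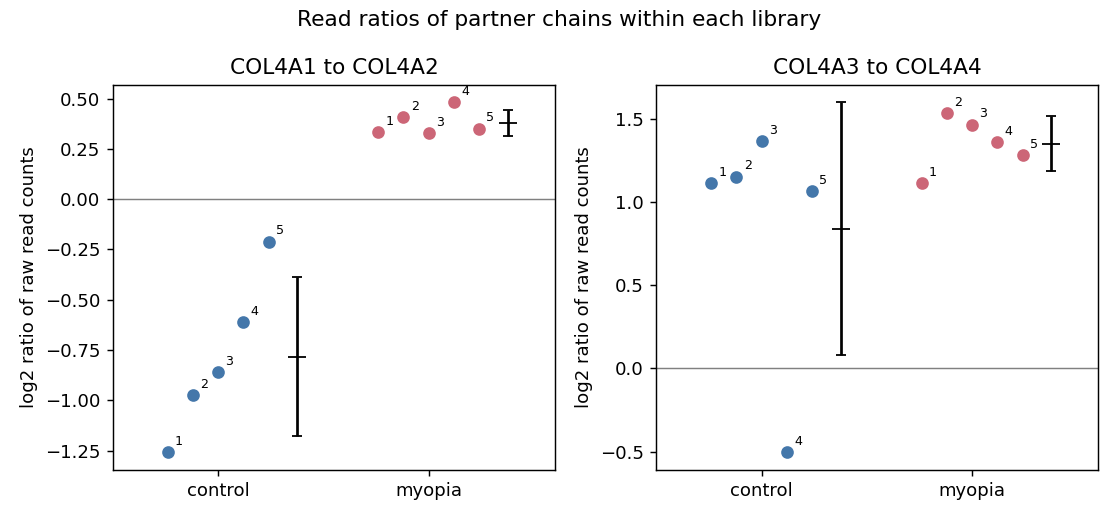
Log2 ratio of raw read counts of partner chains (vertical axis) in each library of the 2 groups, with the mean ± SD beside them; 0 means equal read numbers. For Col4a1 to COL4A2 all control libraries lie below 0 and all myopia libraries above it, while for Col4a3 to COL4A4 the groups overlap and control 4 stands alone below 0.

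The 5 chains together held 0.0493% to 0.0684% of a library's reads in control and 0.0613% to 0.0771% in myopia. This share overlapped between the groups while the makeup of the family did not. It is not scaled with TMM factors, which were higher in myopia, so it does not give the direction of the total in CPM. In mean CPM with TMM factors, COL4A2 went from 416 in control to 208 in myopia and Col4a1 from 242 to 271. COL4A5 went from 39.5 to 93.2, Col4a3 from 1.64 to 10.8 and COL4A4 from 0.969 to 4.22. COL4A2 made up 59.3% ± 6.81 of the family's reads in control and 35.4% ± 0.88 in myopia (SD, n = 5 per group). Col4a1 made up 34.6% ± 5.54 and 46.1% ± 1.83. Col4a3, COL4A4 and COL4A5 taken as one made up 4.50% to 8.43% in control and 15.3% to 21.1% in myopia, most of it from COL4A5, at 5.72% ± 1.595 and 15.9% ± 1.80. The share of Col4a3 was 0.235% ± 0.096 in control and 1.85% ± 0.43 in myopia. These shares are given without a test, because a rise of one chain lowers the share of the others.

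**Figure D4:**
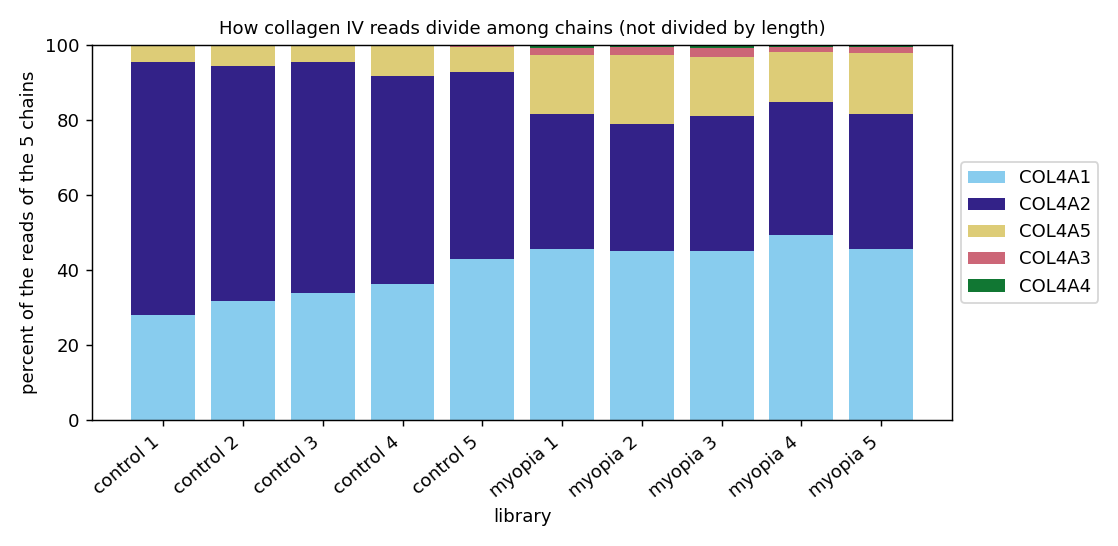
Percent of the reads of the 5 collagen IV chains (vertical axis, 0 to 100) held by each chain in each library (horizontal axis), not divided by length and without the second COL4A2 row. The part of COL4A2 is 49.7% to 67.2% in control and 33.9% to 36.1% in myopia, and that of COL4A5 is 4.28% to 7.98% and 13.4% to 18.4%.

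Each chain was also compared with 12828 other genes of at least 2 CPM by the root mean square difference in log2 CPM over the 10 libraries, each gene centred on its own mean. Nearest to Col4a1 were FICD, PTPRM and TRAK1, at 0.074 to 0.094 log2 units. Nearest to COL4A2 were Ccnq, VPS37B and PLEKHO1, at 0.077 to 0.084. For Col4a3 they were CLOCK, PRMT9 and the eighth row of ZNF627 by mean count, at 0.198 to 0.253. For COL4A4 they were ZNF529, TLR3 and TTC21B, at 0.145 to 0.179, and for COL4A5 they were ZNF550, TEAD1 and the second row of ZC3H7A, at 0.079 to 0.089. Partner chains were not each other's nearest. COL4A2 came at place 9097 from Col4a1, at 0.634 log2 units, and Col4a1 at place 6887 from COL4A2. COL4A4 came at place 385 from Col4a3, at 0.539, and Col4a3 at place 905 from COL4A4. The second COL4A2 row came at place 1006 from COL4A5, at 0.261. The distances between scarce chains include counting error, and all values share the same 10 libraries.

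Chains of collagen IV are hydroxylated, glycosylated and folded in the endoplasmic reticulum before they are exported. Of 23 genes for these steps, all tested, 13 fell, 7 rose and 3 missed the threshold, with a median log2 fold change of -0.39. The counts of this list and of those below stand beside 71.9% of all genes called, 36.9% as higher and 35.1% as lower. No list was tested against these shares. PPIB (cyclophilin B, a folding enzyme), COLGALT1 (a collagen galactosyltransferase), PLOD3 (a lysyl hydroxylase and glucosyltransferase) and P4hb (a subunit of prolyl 4-hydroxylase) fell by 1.24, 1.03, 0.93 and 0.91 on the log2 scale. SERPINH1 (HSP47, the collagen chaperone) fell from 2168 ± 283 to 1109 ± 101 CPM (SD, n = 5 per group; edgeR adjusted p = 1.19e-05). P3H2, the prolyl 3-hydroxylase that acts on collagen IV, went the other way, from 31.8 ± 2.77 to 46.8 ± 8.05 CPM, with a log2 fold change of 0.56 ± 0.12 (SE; edgeR adjusted p = 0.000843). These enzymes also serve the fibrillar collagens, which are far more abundant in sclera.

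Of 12 genes tested for cross-linking of collagen IV or binding to it, 6 fell, 2 rose and 4 did not pass. PXDN (peroxidasin), which forms the sulfilimine bonds between collagen IV end domains, had 144 ± 15.2 CPM in control and 124 ± 7.35 CPM in myopia (SD, n = 5 per group). Its log2 fold change was -0.22 ± 0.09 (SE) with an edgeR adjusted p of 0.0393. That call ended without control 3, control 4, control 5, myopia 1, myopia 2, myopia 3 or myopia 5 (edgeR adjusted p from 0.0512 to 0.125). It also ended without control libraries 4 and 5 together (adjusted p = 0.209), with upper quartile factors (0.168), with the rows of a symbol summed (0.0556) and with the replicate number as a block (0.0882), and the sign turned, to 0.22, with scaling by total count. Loxl2, a lysyl oxidase that cross-links the network's amino-terminal junctions, fell by 0.33 with TMM factors and was at 0.11 with scaling by total count. SPARC, a matrix protein that binds collagen IV, fell from 32029 to 17758 CPM, and VWA1, a basement membrane protein, fell by 0.89 on the log2 scale. CERT1, a ceramide carrier also described as a kinase for the end domain of the COL4A3 chain, rose from 25.9 ± 2.94 to 61.8 ± 4.24 CPM (edgeR adjusted p = 3.30e-07), and SPARCL1, a relative of SPARC, rose by 1.03. With scaling by total count this list had 4 genes higher and 2 lower.

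Laminins form the other network of the basement membrane and nidogens bridge it to collagen IV. Of 13 tested, 2 rose, 1 fell and 10 missed the threshold; the median log2 fold change was 0.20. Lama2, the laminin chain around muscle fibres and Schwann cells, went from 250.4 ± 18.7 to 315 ± 54.6 CPM (SD, n = 5 per group), or 0.33 ± 0.12 on the log2 scale (SE; edgeR adjusted p = 0.0213). Lamc1, the common gamma chain, had a log2 fold change of 0.26 ± 0.11 (edgeR adjusted p = 0.0421). The Lama2 call ended without myopia 2 (adjusted p = 0.0629) and with the replicate number as a block (0.0556), and the Lamc1 call without control 1, 2 or 3 or myopia 1, 2 or 4 (adjusted p from 0.053 to 0.106) as well as with RLE factors (adjusted p = 0.0577), with no filter on low counts (0.0536) and with the replicate number as a block (0.0893). NID1 (nidogen) fell by 0.41 with TMM factors and was at 0.03 with scaling by total count. Nid2 did not pass, at 76.9 ± 18.5 and 73.3 ± 4.46 CPM. Its log2 fold change of -0.07 became 0.36 with scaling by total count and 0.07 without control 5. The counts of this list depended on the scaling, with 8 higher under total count. Without myopia 2 neither Lama2 nor Lamc1 passed and 2 genes were lower. The number higher was 1 without control 2, control 3, myopia 1 or myopia 4, and 3 without control 5 or myopia 3.

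Of 18 tested proteoglycans and other basement membrane components, 7 rose, 5 fell and 6 did not pass. HSPG2 (perlecan), the main heparan sulfate proteoglycan of basement membranes, did not pass, at 521 ± 44.0 and 452 ± 45.5 CPM (SD, n = 5 per group; log2 fold change -0.21, edgeR adjusted p = 0.0878). It passed with DESeq2 (adjusted p = 0.0294) and was at 0.24 with scaling by total count. Agrn (agrin) fell by 0.67 (not past the threshold with scaling by total count, edgeR adjusted p = 0.0847) and Fbln1 (fibulin-1) fell by 1.13 on the log2 scale. HMCN1 (hemicentin-1), a very large extracellular protein, rose from 27.2 ± 6.40 to 133 ± 13.3 CPM, and FREM1, of the complex that anchors epithelia, rose from 9.48 ± 1.42 to 20.6 ± 2.27 CPM. The number of genes that fell was 3, not 5, without control 1, control 3, myopia 1, myopia 2 or myopia 3. It was also 3 with upper quartile factors, and 1 with scaling by total count, where 11 genes rose.

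Cells bind collagen IV and laminin through integrins, discoidin domain receptors and the dystroglycan complex. Of 21 such genes, all tested, 13 rose, 5 fell and 3 missed the threshold, with a median log2 fold change of 0.66. Over all genes, 36.9% passed as higher and 35.1% as lower, with a median of 0.03. Itga1, the integrin chain that with ITGB1 forms the main collagen IV receptor, rose from 3.06 ± 1.72 to 36.7 ± 4.12 CPM (SD, n = 5 per group), or by 3.57 ± 0.32 on the log2 scale (SE; edgeR adjusted p = 1.37e-06). The highest control library had 5.52 CPM and the lowest myopia library 33.8 CPM. Adgrg6 (GPR126), an adhesion receptor of Schwann cells that binds collagen IV, rose from 30.8 ± 5.20 to 83.4 ± 8.71 CPM. DDR2, a receptor mainly for fibrillar collagen, rose by 1.45, the sarcoglycan SGCD by 1.19 and ITGAV by 0.96 on the log2 scale. DDR1, the discoidin receptor that binds collagen IV as well as fibrillar collagen, fell by 0.53 (edgeR adjusted p = 0.0125), a call that ended without control 4 and control 5 (adjusted p = 0.0879) and with scaling by total count (-0.07).

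Of 13 tested proteases able to cut collagen IV or to activate enzymes that do, 5 fell, 2 rose and 6 did not pass. MMP2 (gelatinase A), which was first described as a collagen IV-degrading enzyme, fell from 4519 ± 577 to 2699 ± 484 CPM (SD, n = 5 per group). Mmp14, the membrane protease that activates MMP2, fell by 0.69 on the log2 scale (not past the threshold with scaling by total count, adjusted p = 0.126), and CTSB (cathepsin B) fell by 1.09. With scaling by total count, 4 proteases were higher and 3 lower. MMP16 rose by 0.63, from 17.3 ± 3.75 to 26.9 ± 3.55 CPM.

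**Figure D5:**
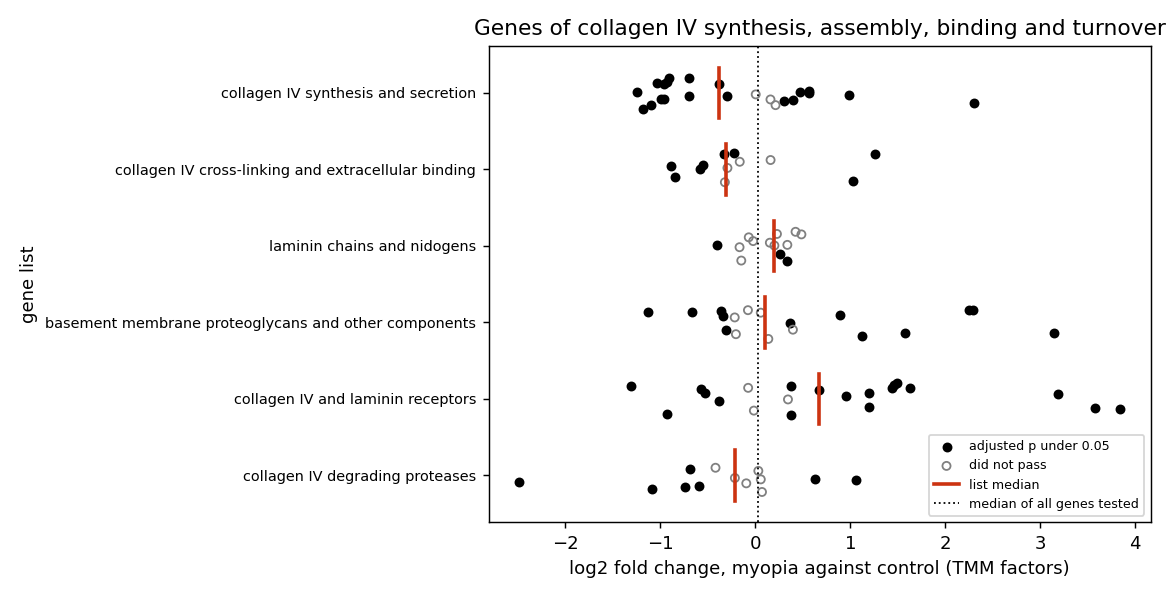
Log2 fold change of myopia against control with TMM factors (horizontal axis) for every tested gene of 6 lists around collagen IV (vertical axis); filled points passed an adjusted p of 0.05 in edgeR, open points did not, red bars are list medians and the dotted line is the median of all genes. Receptors spread furthest to the right, with a median of 0.66, and laminins and nidogens lie closest together, with 10 of 13 open points.

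Basement membranes in a scleral sample can come from several cell types, and their markers moved in mixed ways. The marker counts stand beside 36.9% of all genes higher and 35.1% lower in myopia. Of 17 endothelial markers 4 rose and 6 fell, and their summed level was 1809 to 2198 CPM in control and 1512 to 2188 CPM in myopia. PECAM1 and CDH5, which define endothelium, stood at 334 and 91.8 CPM in control and at 302 and 113 CPM in myopia. Of 14 tested markers of pericytes and vascular smooth muscle 5 rose and 3 fell, with sums of 1869 to 2692 and 1935 to 2722 CPM; within them RGS5 went from 88.6 to 360.1 CPM while PDGFRB was at 236 and 220.1 CPM. Schwann cell markers (14 tested, 4 higher, 6 lower) summed to 5029 to 7455 CPM in control and 3150 to 8151 CPM in myopia. Skeletal muscle markers (16 tested, 2 higher, 7 lower) summed to 2856 to 8016 and 2389 to 5657 CPM. The sums of these 4 lists overlapped between the groups, and their part in the collagen IV differences was not tested.

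Tissues known to carry the trimer of COL4A3, COL4A4 and COL4A5 chains include the lens capsule and membranes of the retina. Lens markers were lower in myopia, 7 of 8 tested having fallen, with sums of 32.7 to 105 CPM in control and 15.2 to 24.6 CPM in myopia. Markers of retinal neurons and glia (14 tested, 1 higher, 5 lower) summed to 2976 to 4846 and 1469 to 4205 CPM. Most of that sum was GFAP and GLUL, which did not pass, while AQP4, a glial water channel, rose from 118 to 510.0 CPM (edgeR adjusted p = 0.000197). Those of the retinal pigment epithelium (10 tested, 3 higher, 2 lower) summed to 2117 to 3441 and 1218 to 2158 CPM. Serpinf1, at 2829 CPM in control and 1641 CPM in myopia, made up nearly all of that sum and fell. RPE65, the visual cycle isomerase, rose from 5.00 to 8.92 CPM (edgeR adjusted p = 0.0225), with the groups overlapping. LRAT, the enzyme that supplies its substrate, rose by 1.98 and the transcription factor MITF by 2.48 on the log2 scale (edgeR adjusted p = 0.000648 and 2.29e-05), both without overlap. Both were scarce, LRAT at 0.30 CPM in control and 1.22 in myopia, MITF at 0.79 and 4.47. RGR, a more abundant marker of the same list, fell from 25.4 to 14.3 CPM (edgeR adjusted p = 0.0149), with the groups overlapping. Surface epithelium markers (7 tested, 2 higher, 2 lower) summed to 52.4 to 79.7 and 37.1 to 61.9 CPM, most of it KRT19, which fell from 44.8 to 27.6 CPM, and PERP, which fell from 12.2 to 8.52 CPM. Tp63, a transcription factor of stratified epithelia, rose by 1.47 and CDH1 (E-cadherin) by 1.27 on the log2 scale (edgeR adjusted p = 0.000757 and 0.00501), both without overlap between the groups. Both were scarce, Tp63 at 1.05 CPM in control and 2.90 in myopia, CDH1 at 1.60 and 3.87. Krt5, a defining gene of the list, did not pass, at 0.67 CPM in control and 0.85 in myopia (edgeR adjusted p = 0.395). Krt15 and PAX6 did not pass either. KRT14, a basal keratin that was not tested, had 1 to 6 reads per control library and 1 to 15 per myopia library. The genes named from the retinal, pigment epithelium and surface epithelium lists were chosen after their values were seen. The part of these tissues in the collagen IV differences was not tested. Melanocyte (9 tested, 1 higher, 6 lower), chondrocyte (11 tested, 1 higher, 4 lower), adipocyte (6 tested, 3 lower, the others not passing) and scleral fibroblast markers (15 tested, 3 higher, 8 lower) had more genes lower than higher.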

How the data were processed

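Per the labels' protocols, total RNA of scleral tissue was made into libraries with a SMARTER mRNA-Seq kit. The authors deposited raw read counts per gene symbol, as 1 table. The submitters' processing notes name GRCm38 and mm10, mouse builds, without a role; which aligner, counter, annotation and strand setting they used is not given in the sources used here. Hence no coordinate, length or sequence is printed and overlapping genes cannot be told apart. Of 18079 rows, 437 without a symbol (0.751% to 1.69% of reads) were left out.

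The test was edgeR 4.0.16 run in R 4.3.3 (filterByExpr with minimum count 10 and total 15, TMM, robust glmQLFit, glmQLFTest, group as the only factor), with Benjamini-Hochberg adjustment over 14683 genes and a threshold of 0.05. SE is the log2 fold change over the square root of the F statistic. The fit was tried on simulated data with changes planted in 200 genes, a setting unlike these data, where 71.9% of genes were called. That simulation cannot show how the scaling behaves when most genes differ. Read ratios were compared by 2-sided exact permutation tests. No library was a copy of another (chi-square over degrees of freedom at least 18.1 between replicates). Alternatives covered scaling, filters, DESeq2 1.42.0, limma-voom 3.58.1, a replicate block and left-out libraries.

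The members and gene lists were chosen with earlier results of these data known. Named are all collagen IV genes, from each list around them at most 4 members past the threshold with a mean of at least 2 CPM, by smallest p, 12 genes in any case (PXDN, LOXL2, P3H2, SERPINH1, NID1, NID2, LAMC1, LAMA2, HSPG2, ITGA1, DDR1, MMP2), the 3 genes nearest to each chain, and the leading markers of cell types.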

Additional observations from a re-analysis of the deposited data

Results flagged for a closer look

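A library was singled out where its gap to the nearest other library of its group exceeded 0.71 of the group's range, which chance gives in about 1 of 20 groups; 108 groups of 5 were examined and 9 were singled out. Among the collagen IV values, Col4a3 was highest in control 5, at 2.83 CPM, and the ratio of Col4a3 to COL4A4 reads was lowest in control 4, at 0.706. Control 5 was also highest among control libraries for NID1, at 436 CPM, ITGAV, at 126 CPM, and PRMT9, at 1.35 CPM. In myopia, ITGAV was highest in myopia 1, at 269 CPM, as was CLOCK, at 33.2 CPM, Itga1 was highest in myopia 4, at 43.9 CPM, and the eighth row of ZNF627 was highest in myopia 2, at 5.95 CPM.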

How the results depend on the processing

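Of 1434 values recomputed under alternatives for 69 results, 1359 kept their direction and side of the threshold, or stayed within 1.5 times for a count. Col4a3, COL4A4, COL4A5 and the second COL4A2 row kept both under all of theirs. COL4A1 came past the threshold with total-count scaling (0.60) and without control libraries 4 and 5 (0.28). Over libraries left out singly it ran from 0.10 to 0.27, past the threshold without control 5 (0.27) and not without any of the 9 others. COL4A2 became 1.36, and its log2 ratio with COL4A1 -1.20, when the second row was used, a choice made after the data were seen. Total-count scaling gave 7633 genes higher and 2751 lower, 73.5% of calls higher against 51.2% with TMM. It turned NID1 (0.030), PXDN (0.22), Loxl2 (0.11), Nid2 (0.36) and HSPG2 (0.24) positive; over single libraries left out Nid2 ran from -0.15 to 0.073, positive without control 5, and it was positive without control libraries 4 and 5 (0.10). Leaving out single libraries, the log2 ratio of COL4A3 to COL4A4 ran from 0.18 to 0.64 and that of COL4A1 to COL4A2 from 1.05 to 1.31. With the replicate block the latter stayed at 1.16, with an adjusted exact permutation p of 0.125; 32 sign flips cannot give a p under 0.0625. Same-numbered libraries did not deviate together (correlations from -0.13 to 0.01, and 0 of 5 control libraries correlated best with their own number). The labels do not say whether same-numbered libraries were prepared together. These correlations cannot decide it, because control libraries spread widely on the first principal component (SD 29.5) and myopia libraries little (SD 4.25). In the edgeR fit the block left 10103 genes past the threshold, against 10561, and changed no collagen IV call; of the named genes it ended the calls of Lama2, Lamc1 and PXDN. Apart from these, the causes of changes were not tested. COL4A6, and its ratio with COL4A5, could not be computed for lack of a row used here. Counts of 14 to 51 reads limit COL4A4 in control.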
